A study of Coelastrella tenuitheca with 9 samples.

Results

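Cells of the green microalga Coelastrella tenuitheca strain S93-3 grown for 7 days with 50 mg/L CdCl2 were set against cells grown without cadmium, and mRNA levels were compared across all genes of the deposited count table. The comparison takes the libraries by their labelled group: 3 with 50 mg/L CdCl2 (Cd50 1 to 3) and 3 without CdCl2 (Control 1 to 3), which is 6 of the 9 libraries of the series. The other 3, from cells given 20 mg/L CdCl2 (Cd20 1 to 3), entered the fit for the estimate of spread. All libraries came from whole cells of the wild type, which had been pre-cultured with glucose under continuous light before the 7 days, and all were poly(A)-selected and labelled as batch 1. Whether the libraries of 1 group are separate cultures is not in the labels. P-values thus measure the spread between these libraries, which may be technical. The table held 12605 genes, of which 11140 passed the filter on low counts and were tested.

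Cadmium is a toxic divalent metal ion that can enter cells through carriers for zinc, iron, manganese or calcium. Plant and algal cells are known to bind it with thiol compounds, chiefly glutathione and the phytochelatins made from glutathione, to move it out of the cytoplasm with ATP-driven pumps, and to meet the oxidative stress that follows with thioredoxins, peroxiredoxins and related enzymes. Coelastrella species are green algae that accumulate carotenoids under stress. Product names in the deposited annotation were present for 2457 genes (19.49%) and informative for 1338 (10.61%). Most are names of fungal proteins. A name therefore records a sequence match, and no gene here has been studied in the alga itself as far as the files say.

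The total count per library was 10457007, 11539763 and 10654565 in Cd50 1 to 3 and 15456743, 12145562 and 12141901 in Control 1 to 3. Levels are counts per 1e6 (CPM) scaled by edgeR's TMM factors, which were 1.065, 1.184 and 1.196 in Cd50 1 to 3 and 0.940, 0.994 and 0.989 in Control 1 to 3. Where 3 values of a group are listed, they stand in the order of replicates 1 to 3. A gene was called higher or lower in Cd50 when the Benjamini-Hochberg adjusted p of edgeR's quasi-likelihood test was under 0.05. Genes that mark a photosynthetic cell were present in every library. The summed level of 15 chlorophyll a-b binding genes was 1208 to 1280 FPKM in Cd50 and 966.7 to 1138 FPKM in Control. That of the Rubisco small subunit was 2898 to 3164 FPKM in Cd50 and 4131 to 4636 FPKM in Control. Counts are shares of a library, so less RNA per cell and fewer cells cannot be told apart here, nor can a change in 1 transcript from a change in all the others.

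The groups separated along the first principal component of the 6 libraries, which held 71.5% of the variance. Cd50 1 to 3 lay at 14.5, 41.0 and 44.1 and Control 1 to 3 at -48.8, -20.6 and -30.1. Cd50 1 was thus displaced from the other Cd50 libraries towards the controls, and Control 1 was displaced from the other controls away from Cd50. On the second component, with 15.8%, Cd50 1 (27.5) and Control 1 (14.7) lay on the opposite side from the other 4 libraries, which ranged from -24.0 to -4.7. Pearson correlations of log2 CPM across genes were 0.978 to 0.993 within Cd50, 0.980 to 0.991 within Control and 0.932 to 0.970 between the groups.

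**Figure D1:**
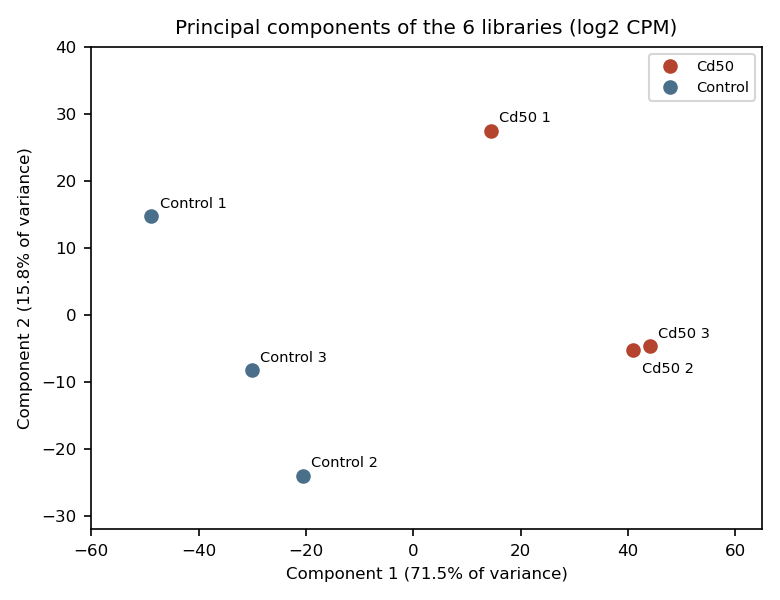
Position of the 6 libraries on the first 2 principal components of log2 CPM (component 1 on the x axis, component 2 on the y axis, in arbitrary units), with Cd50 in red and Control in blue. Cd50 1 lies nearest to the controls on component 1 (14.5), Control 1 farthest from Cd50 (-48.8), and both lie above 0 on component 2.

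After 7 days with 50 mg/L CdCl2, 1983 genes were higher (17.8% of those tested) and 2431 lower (21.8%) than without cadmium, 4414 in all (39.6%; edgeR, all 9 libraries in 1 fit). A change of at least 2-fold was called for 417 of the higher genes (3.74%) and 626 of the lower genes (5.62%). All 3 Cd50 libraries lay above all 3 controls for 2596 genes (23.3%) and below them for 2626 genes (23.6%), so that the groups did not overlap for 46.9% of genes. The largest rises and falls named below were picked among genes without overlap, so its absence in them follows from the choice. Most other list members were named for a low adjusted p, a choice that also favours groups without overlap. A lack of overlap in them is therefore no separate result. Genes called higher took 12.2%, 14.1% and 14.4% of the counts of Cd50 1 to 3, against 6.5%, 7.3% and 7.1% in Control 1 to 3. Genes called lower took 36.2%, 34.1% and 32.8% in Cd50 1 to 3, against 49.2%, 47.0% and 47.3% in Control 1 to 3. Both sets were picked by their change in these same libraries, so the direction of their shares is no separate result. Among the 1259 tested genes with an informative product, 16.7% were higher and 20.2% lower, close to the shares of all genes. The counts of each list below are to be read against those shares of all genes, 17.8% higher and 21.8% lower. The balance between the directions depended on the scaling: with library size alone in place of TMM, 3851 genes were higher (34.6%) and 1582 lower (14.2%).

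The largest fall among described genes was that of a metal carrier, and an ion pump was among the largest rises. The zinc/iron permease A07895, of a family that carries zinc, iron and other divalent ions into cells, had 88.2, 25.9 and 29.7 CPM in Cd50, against 978, 666 and 781 CPM in Control. All Cd50 libraries were far below all controls, and Cd50 1 was the highest of its group (log2 fold change -4.08, SE 0.42, edgeR adjusted p = 1.97e-05). Without Control 1 and Cd50 1 the log2 fold change was -4.68. The E1-E2 ATPase A10982, one of the P-type pumps that use ATP to move ions, had 405, 542 and 576 CPM in Cd50, against 70.5, 70.7 and 78.0 CPM in Control. The groups did not overlap, the controls lay close together, and Cd50 1 was the lowest of its group (log2 fold change 2.80, SE 0.14, edgeR adjusted p = 7.83e-08). The annotation places A10982 on chromosome 9 from 2950542 to 2959403, in coordinates of an assembly that the sources used here do not name.

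Of the 8 genes in the list of metal carriers, ion pumps and ferritins, all of which were tested, 2 were higher, 1 was lower and 5 were not called. These were 25% higher and 12.5% lower, against 17.8% and 21.8% of all genes. The second called higher was A06061, a copper-transporting P-type ATPase of low level, with 7.46, 10.2 and 9.19 CPM in Cd50, against 2.13, 7.21 and 5.17 CPM in Control. Its groups did not overlap, but its controls spread widely and Control 1 was the lowest (log2 fold change 0.91, SE 0.33, edgeR adjusted p = 0.0455). The call was lost in edgeR without Control 1 (adjusted p = 0.0801), Control 3 (0.0879), Cd50 2 (0.124) or Cd50 3 (0.0997), and it was kept with library size alone (0.0193). The second zinc permease, A04655, had 44.4, 28.2 and 28.9 CPM in Cd50, against 31.8, 25.6 and 27.5 CPM in Control (log2 fold change 0.25, SE 0.17, edgeR adjusted p = 0.252), and its groups overlapped. Ferritin-like A04541 and A01264, of a family that stores iron, had log2 fold changes of 0.08 and 0.22, and the cation-transporting ATPase A00017 and the calcium pump A01604, of the type that fills the endoplasmic reticulum with calcium, 0.06 and -0.27, none of which was called with TMM. With a replicate block over the 6 libraries edgeR called A01264 higher (adjusted p = 0.0291) and A01604 lower (0.0343), and the list then had 3 higher and 2 lower. With library size alone it had 4 higher and 1 lower, and without Cd50 1 it had 2 and 2.

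Of the 7 genes of glutathione and phytochelatin metabolism 5 rose and none was called lower, where 17.8% of all genes were higher and 21.8% lower. The median of the list was 1.18 (log2), against 0.025 for all genes. Glutamate-cysteine ligase A01378, which catalyses the first and rate-limiting step of glutathione synthesis, had 31.4, 34.7 and 38.4 CPM in Cd50, against 11.9, 14.9 and 13.3 CPM in Control. Every Cd50 library lay far above every control (log2 fold change 1.38, SE 0.13, edgeR adjusted p = 1.42e-05). The glutathione S-transferases, which couple glutathione to other compounds, rose by different amounts. A02067, the most abundant of them, had 353, 425 and 452 CPM in Cd50, against 152, 205 and 186 CPM in Control (log2 fold change 1.18, SE 0.13, edgeR adjusted p = 3.29e-05). A03303 had 25.1, 30.9 and 37.5 CPM in Cd50, against 5.57, 8.37 and 5.25 CPM in Control (log2 fold change 2.29, SE 0.24, edgeR adjusted p = 2.42e-05). A10304 was near the limit of detection without cadmium, with 205 counts in the Cd50 libraries together and 25 in the controls, a ratio of 8.43 per unit of TMM-scaled library size (95% counting interval 5.55 to 13.3). In none of these 4 genes did the groups overlap, as for 46.9% of all genes tested, and Cd50 1 was the lowest Cd50 library in each.

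Phytochelatin synthase-domain gene A02769, of the enzyme family that joins glutathione units into metal-binding peptides, rose less, with 76.6, 77.4 and 74.8 CPM in Cd50, against 63.1, 64.9 and 55.6 CPM in Control (log2 fold change 0.32, SE 0.10, edgeR adjusted p = 0.0309). This call was lost without Control 3 (edgeR adjusted p = 0.14), Cd50 2 (0.0746) or Cd50 3 (0.0525). The 2 members not called were the glutathione S-transferase-like gene A00337 at 0.16 and the gamma-glutamyltranspeptidase A05724, of a family that cleaves glutathione, at 0.50. A05724 passed with library size alone (adjusted p = 0.0357), without Control 1 and Cd50 1 (0.0174) and with a replicate block in edgeR (0.0491 with all 9 libraries and 0.0109 with the 6). The list held 6 higher members in each of those settings, and 4 to 6 when 1 library was left out.

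Among enzymes that supply sulfur for thiol compounds, calls were falls. Of 6 genes of sulfate activation and cysteine synthesis, 3 fell (50%, against 21.8% of all genes), none was called higher and the list median was -0.30. When tested genes were ordered by mean CPM, 4 of the 6 were in the 3 most abundant deciles. There 31.3% to 51.0% of all genes were lower, and the part of abundance in this count was not tested. Sulfate adenylyltransferase A09027, the enzyme that activates sulfate, had 142, 134 and 138 CPM in Cd50, against 206, 217 and 215 CPM in Control (log2 fold change -0.62, SE 0.09, edgeR adjusted p = 0.000175), and its groups did not overlap. Adenylyl-sulfate kinase A02658, which acts on the activated sulfate, had 45.1, 37.7 and 34.9 CPM in Cd50, against 60.5, 55.5 and 57.4 CPM in Control (log2 fold change -0.56, SE 0.11, edgeR adjusted p = 0.0025). A second sulfate adenylyltransferase, A10137, had 105, 83.0 and 80.2 CPM in Cd50, against 134, 102 and 116 CPM in Control, with overlapping groups (log2 fold change -0.40, SE 0.13, edgeR adjusted p = 0.0276). Its call was lost in edgeR with library size alone (adjusted p = 0.191) and without Control 1 (0.125), Control 3 (0.0656), Cd50 2 (0.118) or Cd50 3 (0.125). Cysteine synthases A01333 and A00254, which make cysteine from serine and sulfide, had log2 fold changes of -0.11 and 0.43 and were not called. The carrier of activated sulfate A08034 was at -0.19 without a call. The sign of A01333 and A08034 turned with library size alone (0.12 and 0.04), and without Cd50 1 the list had 1 higher and 3 lower.

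Thiol redox and peroxide enzymes had 6 higher (25%) and 5 lower (20.8%) of 24 tested genes, where 17.8% and 21.8% of all genes were called so. The list held 25 genes. The thioredoxin-like fold gene A07320 was the most abundant of them and one of the most abundant genes to rise, with 1639, 1588 and 1749 CPM in Cd50, against 349.7, 337 and 342 CPM in Control. Its libraries within each group lay close together, Cd50 1 included (log2 fold change 2.27, SE 0.09, edgeR adjusted p = 1.44e-08). The 1-Cys peroxiredoxin A06230, which reduces peroxides with a cysteine thiol, had 338, 300.0 and 328 CPM in Cd50, against 195, 155 and 157 CPM in Control (log2 fold change 0.93, SE 0.11, edgeR adjusted p = 6.12e-05). Monodehydroascorbate reductase A00318, which regenerates ascorbate, had 136, 143 and 145 CPM in Cd50, against 74.5, 94.7 and 81.9 CPM in Control (log2 fold change 0.76, SE 0.11, edgeR adjusted p = 0.000185). The cytoplasmic thioredoxin A02873 went the other way, with 72.6, 41.4 and 39.6 CPM in Cd50, against 170.3, 122 and 144 CPM in Control (log2 fold change -1.51, SE 0.21, edgeR adjusted p = 0.00021). The groups did not overlap in any of these 4, as for 46.9% of all genes tested. Among members named after their values were seen, catalase A03240, which breaks down hydrogen peroxide, had 331, 275 and 269 CPM in Cd50, against 517, 434 and 446 CPM in Control (log2 fold change -0.67, SE 0.11, edgeR adjusted p = 0.000458). Catalase A05091 was also lower (-0.78), as was manganese superoxide dismutase A05722 (-0.40). In edgeR the call of A05722 was lost under library size scaling (adjusted p = 0.279) and without Control 2 (0.0557), Control 3 (0.0595), Cd50 2 (0.0528) or Cd50 3 (0.0779). With library size alone the list had 12 higher and 3 lower, and the lower count was 3 without Cd50 2 or Control 2.

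Of 38 reductases, oxygenases and cytochrome P450 genes 13 rose and 6 fell (34.2% and 15.8%, against 17.8% and 21.8% of all genes), with a list median of 0.33. These families act on a wide range of small molecules, and their substrates here are unknown. A09495, described as an NADP-binding protein, had 196, 271 and 289 CPM in Cd50, against 26.5, 42.6 and 29.7 CPM in Control (log2 fold change 2.94, SE 0.21, edgeR adjusted p = 1.47e-06). The short-chain dehydrogenase A00642 had 36.4, 45.6 and 45.0 CPM in Cd50, against 10.1, 13.0 and 12.3 CPM in Control (log2 fold change 1.84, SE 0.14, edgeR adjusted p = 2.1e-06). The FMN-linked oxidoreductase A02714 rose with a wider spread of controls, at 49.2, 62.4 and 60.2 CPM in Cd50, against 12.9, 35.8 and 25.9 CPM in Control (log2 fold change 1.21, SE 0.27, edgeR adjusted p = 0.00429). Cytochrome P450 A02478 was the largest fall of the list, with 378, 338 and 328 CPM in Cd50, against 967, 879 and 873 CPM in Control (log2 fold change -1.38, SE 0.09, edgeR adjusted p = 1.01e-06). The groups of these 4 genes did not overlap, as for 46.9% of all genes tested. The number of higher members was 9 (3 lower) without Cd50 2 and 6 (3 lower) without Cd50 3, where 11.6% of all genes were higher, and 24 higher and 3 lower with library size alone.

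Other described genes with large rises fell into no list of redox enzymes. Peptidase M24-domain gene A10377, of a family of metal-dependent aminopeptidases, had 131, 144 and 167 CPM in Cd50, against 13.8, 18.9 and 16.8 CPM in Control (log2 fold change 3.16, SE 0.14, edgeR adjusted p = 2.43e-08). The metallo-beta-lactamase superfamily gene A09010, of a fold that binds metal ions at its active site and includes hydrolases of many kinds, had 23.3, 32.2 and 33.8 CPM in Cd50, against 5.30, 7.29 and 6.25 CPM in Control (log2 fold change 2.25, SE 0.18, edgeR adjusted p = 2.96e-06). A00100, described as Protein tas, a name used for an aldo-keto reductase in bacteria, had 54.9, 59.4 and 60.8 CPM in Cd50, against 13.9, 17.4 and 17.0 CPM in Control (log2 fold change 1.86, SE 0.12, edgeR adjusted p = 7.39e-07). The groups of all 3 were free of overlap, which was a condition of their choice.

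**Figure D2:**
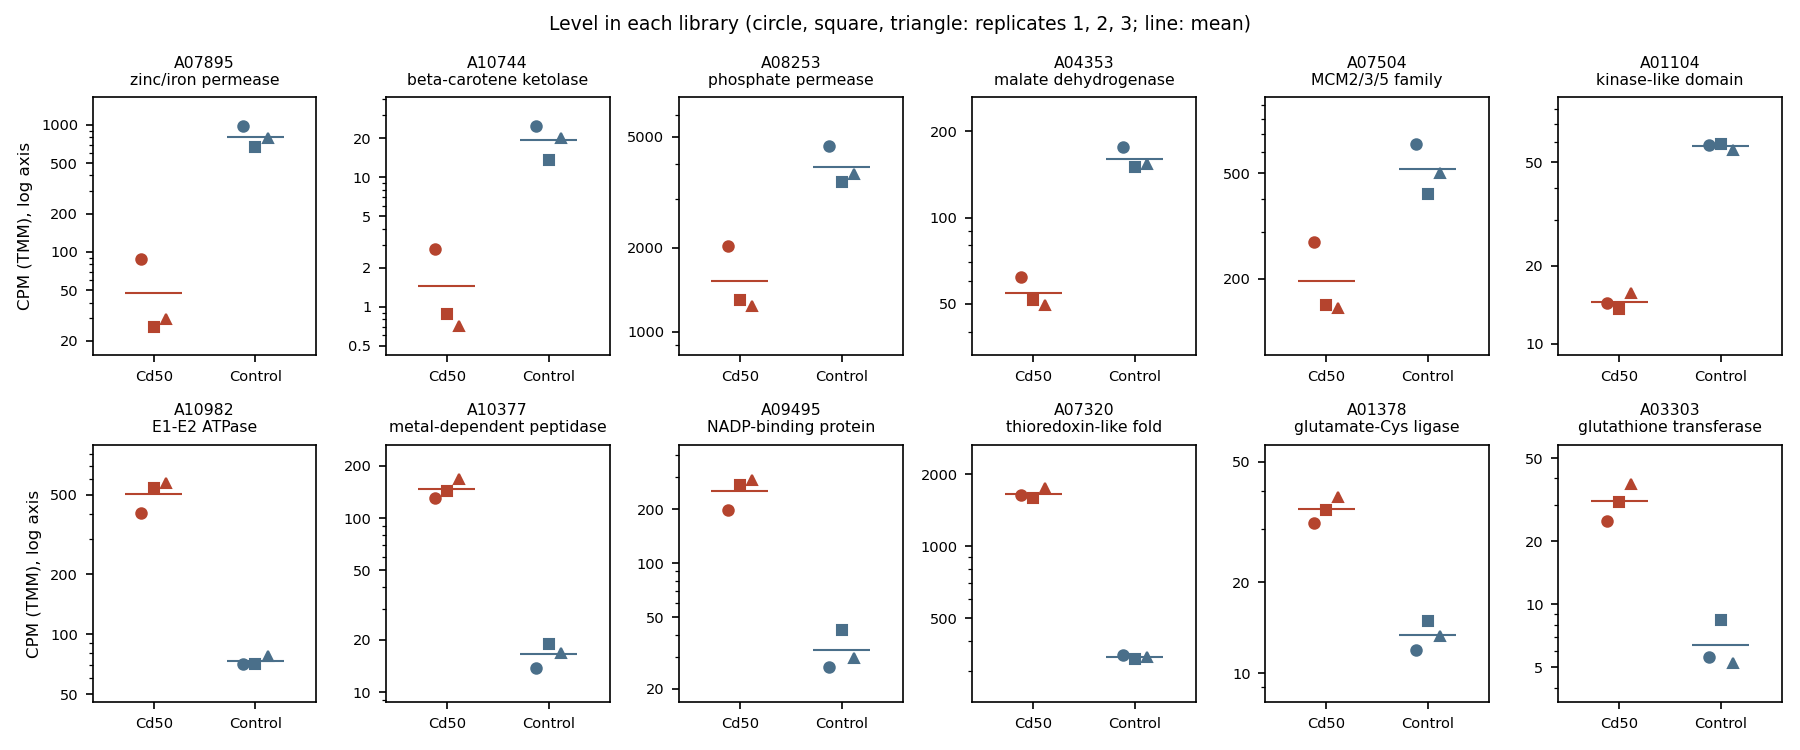
Level of 12 genes in each library, in CPM with TMM factors on a log axis, with Cd50 (red) left of Control (blue); circles, squares and triangles are replicates 1, 2 and 3 and lines are group means. The groups do not overlap in any panel, as for 46.9% of all genes tested. Within Cd50, replicate 1 (circle) is nearest to the controls for the zinc/iron permease (88.2 CPM) and the ketolase A10744 (2.79 CPM). The same holds for the E1-E2 ATPase (405 CPM), but not for the kinase-like gene A01104.

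Of 4 genes of phosphate uptake 3 fell (75%, against 21.8% of all genes) and none was called higher. Of the 3, 2 were in the most abundant decile of tested genes ordered by mean CPM, where 51.0% of all genes were lower. The phosphate permease A05085, a carrier of inorganic phosphate of the type that fungi switch off when phosphate is plentiful, had 2763, 2013 and 1906 CPM in Cd50, against 5193, 4602 and 4637 CPM in Control (log2 fold change -1.11, SE 0.14, edgeR adjusted p = 8.42e-05). A08253, with the same product name, had 2024, 1296 and 1234 CPM in Cd50, against 4620.0, 3430.0 and 3674 CPM in Control (log2 fold change -1.36, SE 0.18, edgeR adjusted p = 0.000143). The phosphate transporter A03043 was much less abundant, with 19.0, 16.0 and 14.4 CPM in Cd50, against 48.0, 53.2 and 48.6 CPM in Control (log2 fold change -1.60, SE 0.12, edgeR adjusted p = 2.26e-06). The groups did not overlap in any of the 3, as for 46.9% of all genes tested, and Cd50 1 was the highest Cd50 library in each. The remaining member of the 4, the SPX domain-containing gene A10153, of a family that senses phosphate status in plants and yeast, had a log2 fold change of -0.17 and was not called; it was 0.07 with library size alone. The 3 falls were called whichever library was left out, and under library size and upper quartile scaling. Reads of A05085 and A08253 could be split between them where their sequences are alike.

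Pigment and photosynthesis genes showed large changes of single members and no common direction. The beta-carotene ketolase A10744, of the enzyme family that makes keto-carotenoids such as canthaxanthin, had 2.79, 0.878 and 0.707 CPM in Cd50, against 24.6, 13.6 and 20.0 CPM in Control (log2 fold change -3.78, SE 0.39, edgeR adjusted p = 2.1e-05). It was close to undetected in Cd50 2 and Cd50 3, with 52 counts in the 3 Cd50 libraries together and 762 in the controls. The second ketolase, A05367, had 98.4, 47.9 and 46.2 CPM in Cd50, against 175, 91.8 and 118 CPM in Control, with Cd50 1 above Control 2 (log2 fold change -1.0, SE 0.28, edgeR adjusted p = 0.0143). Leaving out Control 1 and Cd50 1 gave A05367 a log2 fold change of -1.13 (edgeR adjusted p = 1.44e-07), whereas the call was lost without Control 1 alone (0.0617), Cd50 2 (0.0611) or Cd50 3 (0.0649). Porphobilinogen synthase A00577, an early enzyme of the pathway to chlorophyll and haem, had 14.6, 18.1 and 17.1 CPM in Cd50, against 7.09, 10.2 and 6.58 CPM in Control (log2 fold change 1.07, SE 0.18, edgeR adjusted p = 0.000616). Chlorophyll synthase A03155, a late enzyme of the chlorophyll branch, had 60.2, 65.1 and 72.8 CPM in Cd50, against 42.3, 56.9 and 49.3 CPM in Control (log2 fold change 0.42, SE 0.12, edgeR adjusted p = 0.0186). The call of A03155 was lost in edgeR without Control 1 (0.0538), Control 3 (0.0615) or Cd50 3 (0.0717). Coproporphyrinogen oxidase-like A07916 was at -0.25 with TMM and at -0.01 with library size alone (edgeR adjusted p = 0.956). Its call was also lost without Control 1 (0.108), Control 3 (0.0854), Cd50 2 (0.106) or Cd50 3 (0.0865) and without Control 1 and Cd50 1 together (0.0734). Porphobilinogen deaminase A00125 was at 0.03 without a call. In all, 2 of the 6 genes of carotenoid and tetrapyrrole synthesis were higher and 3 lower (33.3% and 50%, against 17.8% and 21.8% of all genes). These counts were 2 and 1 without Cd50 2, 1 and 1 without Cd50 3 or Control 1, and 1 and 2 without Control 3.

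The list of light-harvesting and photosystem genes had 5 higher and 4 lower of 15 tested (33.3% and 26.7%, against 17.8% and 21.8% of all genes). The list held 17 genes. By product name it held 15 chlorophyll a-b binding genes and 2 ferredoxins, and no photosystem subunit. Within the chlorophyll a-b binding family, the antenna proteins that pass light energy to the photosystems, A10888 had 44.8, 37.0 and 33.5 CPM in Cd50, against 92.6, 102 and 99.2 CPM in Control (log2 fold change -1.35, SE 0.14, edgeR adjusted p = 2.61e-05). A00964 had 49.0, 47.9 and 39.9 CPM in Cd50, against 78.9, 108 and 91.9 CPM in Control (log2 fold change -1.03, SE 0.14, edgeR adjusted p = 0.000171). A03391 went the other way, with 47.1, 44.7 and 48.9 CPM in Cd50, against 27.3, 32.1 and 28.5 CPM in Control (log2 fold change 0.68, SE 0.11, edgeR adjusted p = 0.000677). These 3 share the product name chlorophyll a-b binding protein 3C, reads may be split between near-identical copies, and single members are therefore uncertain. The summed antenna level given above was higher in each Cd50 library than in each Control library in FPKM, a unit scaled by the column total. Divided by the TMM factors it was 1134, 1072 and 1071 FPKM in Cd50 1 to 3 and 1028, 1145 and 1130 FPKM in Control 1 to 3, so that the groups overlapped. With library size alone the list had 8 higher and 3 lower.

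Genes of carbon fixation and starch fell in 4 of 7 cases and rose in 1 with TMM (57.1% and 14.3%, against 21.8% and 17.8% of all genes). With library size alone 2 were higher and 2 lower. Of the 7, 6 were in the 3 most abundant deciles, where 31.3%, 44.4% and 51.0% of all genes were lower. The small subunit of Rubisco, A03462, of the enzyme that fixes CO2, had 1445, 1190.0 and 1215 CPM in Cd50, against 2135, 2268 and 2259 CPM in Control (log2 fold change -0.79, SE 0.10, edgeR adjusted p = 6.45e-05), with no overlap. Carbonic anhydrase A10519, which speeds the exchange between CO2 and bicarbonate, had 88.8, 104 and 98.9 CPM in Cd50, against 115, 143 and 129 CPM in Control (log2 fold change -0.41, SE 0.13, edgeR adjusted p = 0.0247). In edgeR that call was lost with library size alone (adjusted p = 0.324) and without Control 2 (0.072), Control 3 (0.0647), Cd50 2 (0.0513) or Cd50 3 (0.0707). The glycogen debranching genes A02143 and A08800, of a family that trims branched glucans, fell by 0.50 and 0.30. The call of A08800 was lost in edgeR with library size alone (adjusted p = 0.589) and without Control 2 (0.111), Control 3 (0.0597), Cd50 2 (0.105) or Cd50 3 (0.126). Fructose-1,6-bisphosphatase A08799, a Calvin cycle and gluconeogenesis enzyme, was at 0.02, and the glucan-branching enzyme A04145 at -0.27, without a call; the sign of A08799 turned without Cd50 1 (-0.07) or Control 1 (-0.01), and that of A04145 without Control 2 (0.04). The rise was A06282, a glycogen phosphorylase-like gene with 85 counts in Cd50 and 46 in Control, called at an edgeR adjusted p of 0.0274. This call was lost without Control 1 (0.0939), Control 3 (0.0773), Cd50 1 (0.0531) or Cd50 3 (0.104) and without Control 1 and Cd50 1 together (0.119). The list had 0 higher and 5 lower without Control 1, 0 and 4 without Cd50 1, 0 and 2 without Cd50 3 or Control 3, and 1 and 2 without Cd50 2 or Control 2.

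Of 29 genes of glycolysis and the citrate cycle 10 fell and 1 rose (34.5% and 3.45%, against 21.8% and 17.8% of all genes), with a median of -0.10. In the 3 most abundant deciles were 24 of the 29, and 31.3% to 51.0% of all genes in those deciles were lower. Malate dehydrogenase A04353, which interconverts malate and oxaloacetate, had 62.0, 51.8 and 49.4 CPM in Cd50, against 176, 149.7 and 154 CPM in Control (log2 fold change -1.56, SE 0.12, edgeR adjusted p = 2.26e-06). The E1 component of 2-oxoglutarate dehydrogenase A05803, a citrate cycle enzyme, had 192, 207 and 210.4 CPM in Cd50, against 339.6, 367 and 336 CPM in Control (log2 fold change -0.78, SE 0.09, edgeR adjusted p = 3.38e-05). Phosphoenolpyruvate carboxykinase A03625, which takes oxaloacetate towards sugars, had 111, 121 and 113 CPM in Cd50, against 174, 218 and 192 CPM in Control (log2 fold change -0.76, SE 0.10, edgeR adjusted p = 0.000148). These 3 had no overlap between groups, as for 46.9% of all genes tested. They were called with library size alone as well, where the list as a whole had 6 higher and 5 lower and a median of 0.14.

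The dehydrogenase of glucose 6-phosphate A04681, which opens the pentose phosphate route and yields NADPH, had 50.0, 59.1 and 52.4 CPM in Cd50, against 86.0, 112 and 98.7 CPM in Control (log2 fold change -0.88, SE 0.12, edgeR adjusted p = 0.00014). The transketolase A04460 of the same pathway had 1284, 1256 and 1238 CPM in Cd50, against 1539, 1828 and 1709 CPM in Control (log2 fold change -0.43, SE 0.09, edgeR adjusted p = 0.00283). Under library size scaling it was not called (edgeR adjusted p = 0.0833). Of 9 pentose phosphate genes 4 fell and 1 rose (44.4% and 11.1%, against 21.8% and 17.8% of all genes). The rise was that of the ribulose-phosphate 3-epimerase A04880 (log2 fold change 0.60, lost at an edgeR adjusted p of 0.0527 without Cd50 3). In the 3 most abundant deciles, where falls were more frequent among all genes as well, were 6 of the 9. With library size alone 3 were higher and 1 lower. The counts were 3 and 5 without Cd50 1, 0 and 2 without Cd50 3, 2 and 2 without Control 2, and 1 and 2 without Cd50 2, Control 1 or Control 3. The acetyl-CoA synthetase-like gene A07563, of enzymes that activate acetate, had 44.8, 24.3 and 19.4 CPM in Cd50, against 123, 87.4 and 98.0 CPM in Control (log2 fold change -1.81, SE 0.25, edgeR adjusted p = 0.00017). The GPR1/FUN34/yaaH family gene A01504, of a family that includes acetate carriers in yeast and bacteria, had 187, 208 and 188 CPM in Cd50, against 460.2, 614 and 563 CPM in Control (log2 fold change -1.49, SE 0.11, edgeR adjusted p = 2.26e-06).

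Of 14 tested cell wall and glycan genes 6 fell and 1 rose (42.9% and 7.14%, against 21.8% and 17.8% of all genes). The rise was the same A06282 as above. Glycosyltransferase A10237, of a family that attaches sugars to proteins, had 197, 168 and 148 CPM in Cd50, against 422, 362 and 356 CPM in Control (log2 fold change -1.15, SE 0.12, edgeR adjusted p = 2.81e-05). Glycoside hydrolase A03217, of enzymes that cleave sugar bonds, had 599, 589.8 and 578 CPM in Cd50, against 844, 882 and 825 CPM in Control (log2 fold change -0.53, SE 0.08, edgeR adjusted p = 0.000401). With library size alone the list had 4 higher and 3 lower, and none was higher without Cd50 1, Cd50 3 or Control 3. Of 24 lipid genes, 2 were lower and 8 higher with library size alone. With TMM, 3 were lower and 1 was higher (12.5% and 4.17%, against 21.8% and 17.8% of all genes). Those lower included lanosterol synthase A00972, of sterol synthesis (-0.56), the peroxisomal long-chain acyl-CoA synthetase A07095 (-0.50) and acyl-CoA oxidase A02547 of fatty acid breakdown (-0.39), of which A02547 lost its call under library size scaling (edgeR adjusted p = 0.14). The count of higher lipid genes was 2 without Cd50 1 or Control 2 and 0 without any 1 of the other 4 libraries. Of 21 genes of amino acid and nitrogen metabolism 5 fell and 2 rose (23.8% and 9.52%, against 21.8% and 17.8% of all genes). The falls included L-threonine dehydrogenase A04684 (-0.47) and the alanine and aspartate aminotransferases A00861 (-0.42) and A04423 (-0.35). The last 2 lost their call with library size alone (adjusted p of 0.14 and 0.241), where 6 members were higher and 1 lower. The counts were 1 and 3 without Cd50 2 or Cd50 3, 1 and 4 without Control 1, and 2 and 3 without Control 3. The 3 most abundant deciles, where falls were more frequent among all genes, held 15 of these 21. They also held 7 of the 14 cell wall and glycan genes and 11 of the 24 lipid genes.

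Protein kinase and phosphatase transcripts were called lower in 22 of 45 tested members (48.9%, against 21.8% of all genes) and higher in 3 (6.67%), with a list median of -0.47; 48 genes were in the list. These enzymes add phosphate groups to proteins or remove them, and so carry signals within cells. The kinase-like gene A01104 had 14.4, 13.6 and 15.6 CPM in Cd50, against 58.3, 59.1 and 55.8 CPM in Control. Both groups were tight, and Cd50 1 lay among the other Cd50 libraries (log2 fold change -1.99, SE 0.13, edgeR adjusted p = 5.71e-07). The tyrosine phosphatase A02261, a homologue of yeast yvh1, had 30.3, 34.5 and 33.9 CPM in Cd50, against 72.7, 84.0 and 78.1 CPM in Control (log2 fold change -1.25, SE 0.11, edgeR adjusted p = 5.61e-06). The kinase-like gene A01551 had 97.4, 100.3 and 91.2 CPM in Cd50, against 207, 201 and 192 CPM in Control (log2 fold change -1.05, SE 0.09, edgeR adjusted p = 4.81e-06). The tyrosine phosphatase-like gene A00171, outside the list, had 14.6, 15.7 and 11.5 CPM in Cd50, against 38.3, 36.0 and 32.6 CPM in Control (log2 fold change -1.35, SE 0.17, edgeR adjusted p = 9.1e-05). A cyclin-dependent kinase, A01325, of the kinases that drive the cell cycle, had 123, 103 and 94.5 CPM in Cd50, against 267, 203 and 224 CPM in Control (log2 fold change -1.11, SE 0.14, edgeR adjusted p = 7.18e-05). Another, A06676, had 11.8, 12.4 and 14.2 CPM in Cd50, against 6.95, 9.20 and 8.16 CPM in Control (log2 fold change 0.66, SE 0.18, edgeR adjusted p = 0.0115). All of these had no overlap between groups, as for 46.9% of all genes tested, and they were named for a low adjusted p or a large change. The number of lower members was 16 with library size alone and 24 without Control 1 and Cd50 1, and 16 to 22 when 1 library was left out. The number of higher members was 5 without Cd50 1 and 1 without Cd50 2, Cd50 3, Control 1 or Control 3. In the 3 most abundant deciles (tested genes ordered by mean CPM), where falls were more frequent among all genes as well, were 21 of the 45; the part of abundance in this count was not tested.

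DNA replication genes were called in both directions, with 6 lower and 5 higher of 18 (33.3% and 27.8%, against 21.8% and 17.8% of all genes). The lower members included subunits of the MCM helicase, the ring that opens DNA at replication origins. MCM2/3/5 family gene A07504 had 276, 159 and 155 CPM in Cd50, against 642, 415 and 499.6 CPM in Control (log2 fold change -1.40, SE 0.21, edgeR adjusted p = 0.000343). A second of that family, A08347, had 132, 101 and 106 CPM in Cd50, against 261, 216 and 231 CPM in Control (log2 fold change -1.07, SE 0.12, edgeR adjusted p = 3.38e-05). For A07731 the values were 24.8, 23.6 and 24.4 CPM in Cd50, against 42.6, 37.0 and 36.1 CPM in Control (log2 fold change -0.67, SE 0.12, edgeR adjusted p = 0.00094). Members named after their values were seen were the MCM subunit A07246 (-0.61), the polymerase delta processivity factor A00032, the sliding clamp of the replication fork (-0.69), and thymidylate synthase A00407 (-0.62), which makes a DNA precursor. The higher members included replication factor C subunit 2, A07498, part of the clamp loader, with 13.5, 15.4 and 20.1 CPM in Cd50, against 7.02, 9.45 and 8.75 CPM in Control (log2 fold change 0.96, SE 0.18, edgeR adjusted p = 0.00143). Also higher, and named after their values were seen, were the clamp-loader subunit A03799 (0.47, lost without Control 1, Control 3 or Cd50 3) and the large subunit of ribonucleotide reductase A08853 (0.58), which makes deoxyribonucleotides. The 6 falls were called without each library in turn and with library size alone. The higher count was 3 without Cd50 2, 2 without Cd50 3, Control 1 or Control 3, 8 without Control 2 and 9 with library size alone.

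Of 54 genes with histone product names, 8 passed the filter on low counts, of which 3 were higher and 1 lower (37.5% and 12.5%, against 17.8% and 21.8% of all genes). Histone H2A A08416 had 171 counts in Cd50 and 51 in Control, a ratio of 3.45 per unit of TMM-scaled library size (95% counting interval 2.51 to 4.81), and the histone-fold gene A08509 65 and 25 counts, a ratio of 2.67 (1.66 to 4.43). Histone H3.2 A07570 fell by 0.48, with 112, 102 and 103 CPM in Cd50, against 159, 135 and 149 CPM in Control (edgeR adjusted p = 0.00276). The third rise, A02916 (0.54), was lost without any 1 of Cd50 1, Cd50 2, Cd50 3, Control 1 and Control 3 (edgeR adjusted p of 0.0714, 0.112, 0.0927, 0.113 and 0.138) and with a replicate block over 9 libraries (0.0547). Histone transcripts of many organisms lack a poly(A) tail, histone copies share reads, and without Cd50 1 the counts were 2 and 2. Among 28 tested genes of chromatin and transcription, 4 were higher and 5 lower (14.3% and 17.9%, against 17.8% and 21.8% of all genes). They included the SNF2 family gene A09276, a chromatin remodeller, at 97.0, 66.9 and 70.0 CPM in Cd50, against 174, 124 and 133 CPM in Control (log2 fold change -0.88, SE 0.16, edgeR adjusted p = 0.00108). Histone deacetylase A02892, which removes acetyl groups from histones, had 382, 265 and 252 CPM in Cd50, against 522, 477 and 480.1 CPM in Control (log2 fold change -0.72, SE 0.14, edgeR adjusted p = 0.00186). The non-histone chromosomal protein A06902 had 168, 177 and 184 CPM in Cd50, against 107, 115 and 106 CPM in Control (log2 fold change 0.69, SE 0.09, edgeR adjusted p = 0.000101). This list had 7 and 9 without Cd50 1, 7 and 6 without Control 2, 3 and 3 without Cd50 2, Cd50 3 or Control 1, and 14 and 3 with library size alone.

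Translation factors and tRNA synthetases rose in 13 of 35 cases (37.1%, against 17.8% of all genes) and fell in 2, with a median of 0.24. The mitochondrial-type translation factor GUF1, A03094, had 7.55, 11.2 and 11.5 CPM in Cd50, against 3.30, 4.39 and 4.08 CPM in Control (log2 fold change 1.37, SE 0.21, edgeR adjusted p = 0.000412). Seryl-tRNA synthetase A03425, which loads serine onto its tRNA, had 11.3, 16.8 and 14.6 CPM in Cd50, against 5.16, 6.96 and 5.83 CPM in Control (log2 fold change 1.26, SE 0.19, edgeR adjusted p = 0.000376). Mitochondrial-type elongation factor G A06408 had 19.9, 23.6 and 22.9 CPM in Cd50, against 8.95, 13.9 and 11.6 CPM in Control (log2 fold change 0.95, SE 0.16, edgeR adjusted p = 0.000707). The other 10 rises were of 0.36 to 0.76 on the log2 scale. They included, named after their values were seen, the synthetases or ligases for histidine (A00908, 0.61), aspartate (A03027, 0.57), arginine (A05002, 0.52), alanine (A00634, 0.43), isoleucine (A02642, 0.43) and lysine (A04983, 0.42, lost without Control 1, Control 3, Cd50 2 or Cd50 3). A second isoleucine enzyme, A10957, was lower (-0.45, lost with library size alone). The abundant elongation factor 1 alpha gene A03449, which brings loaded tRNAs to the ribosome, had 3385 ± 672 CPM in Cd50 and 5361 ± 629.8 CPM in Control (SD, n = 3 each; log2 fold change -0.66, SE 0.13, edgeR adjusted p = 0.00228). The elongation factor alpha-like gene A06677, named after its values were seen, was not called with TMM. In CPM of the plain library size, without TMM factors, A06677 had 6437, 5853 and 6382 in Cd50, against 5066, 4695 and 5095 in Control. In that unit A03449 had 4424, 3632 and 3503 in Cd50, against 5672, 4753 and 5205 in Control. The list had 23 higher and 1 lower with library size alone, 17 and 3 without Control 1 and Cd50 1, and 16 and 5 without Cd50 1. The counts were 9 and 2 without Cd50 2, and 10 and 2 without Cd50 3 or Control 1. They were 12 and 3 without Control 2, and 12 and 2 without Control 3.

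The 66 ribosomal protein genes, all tested, had a median of -0.01 with TMM. There 4 were higher and 5 lower (6.06% and 7.58%, against 17.8% and 21.8% of all genes). With library size alone the median was 0.22, and 29 were higher and none lower. The direction of the family therefore depends on the scaling. Relative to the median of all genes the list median was -0.04 in both settings, which follows from a shift that is nearly the same for all genes. In the most abundant decile of genes were 51 of the 66, and 3 of those 51 were called lower, against 51.0% of all genes in that decile. In this family single libraries also set the counts. Of the 66, 17 were lower without Cd50 1, 5 without Control 2, and none without Cd50 2, Cd50 3, Control 1 or Control 3. The higher count was 2 without Cd50 1, 5 without Cd50 2 or Control 1, and 1 without Cd50 3, Control 2 or Control 3. The summed level was 78205, 60280 and 66796 CPM in Cd50 1 to 3 and 73141, 65496 and 69380 CPM in Control 1 to 3, so that the library numbered 1 was the highest of each group and the groups overlapped. Among single genes were small-subunit S8e A04031 (-0.50) and S25 A02107 (-0.43), both of which lost their call with library size alone (adjusted p of 0.0677 and 0.0935 in edgeR) and without Control 1, Control 3, Cd50 2 or Cd50 3. S12 A01828 was higher (0.95, edgeR adjusted p = 0.0067).

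Ribosome assembly and nucleolar genes, which build the subunits in the nucleolus, had 5 lower and 3 higher of 22 with TMM (22.7% and 13.6%, against 21.8% and 17.8% of all genes). With library size alone 3 were lower and 5 higher. Nucleolar RNA helicase 2, A05195, had 107, 63.5 and 65.6 CPM in Cd50, against 215, 157 and 175 CPM in Control (log2 fold change -1.21, SE 0.19, edgeR adjusted p = 0.000422). The snoRNA-binding rRNA-processing gene A09270 had 34.9, 22.5 and 24.2 CPM in Cd50, against 45.4, 37.0 and 43.4 CPM in Control (log2 fold change -0.63, SE 0.16, edgeR adjusted p = 0.00897). In both, Cd50 1 was the highest Cd50 library by a wide margin. The summed level of this list was 1344, 860.3 and 870.7 CPM in Cd50 1 to 3 and 1533, 1047 and 1235 CPM in Control 1 to 3, with Cd50 1 above Control 2 and Control 3. The counts were 3 higher and 8 lower without Cd50 1, 3 and 2 without Cd50 2, Cd50 3 or Control 1, and 2 and 2 without Control 3. RNA processing genes and helicases were called in both directions, 7 higher and 6 lower of 37 (18.9% and 16.2%, against 17.8% and 21.8% of all genes). They included Pumilio 2, A00157, which binds and represses mRNAs in animals and yeast, with 135, 129 and 123 CPM in Cd50, against 204, 203 and 200.5 CPM in Control (log2 fold change -0.65, SE 0.08, edgeR adjusted p = 9.97e-05). The splicing factor A09993 (0.55) and the RNA-binding gene A00193 (0.60) were higher. That list had 19 and 2 with library size alone, 9 and 11 without Cd50 1, 7 and 1 without Cd50 2, 6 and 1 without Cd50 3, 8 and 3 without Control 1, and 6 and 2 without Control 3.

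Chaperone and heat shock genes, whose products fold or hold proteins, were higher in 8 and lower in 4 of 32 cases (25% and 12.5%, against 17.8% and 21.8% of all genes). The bacterial-type Hsp70 gene A03630 (DnaK) had 1741, 1286 and 1210.0 CPM in Cd50, against 2467, 1884 and 2050.0 CPM in Control (log2 fold change -0.60, SE 0.14, edgeR adjusted p = 0.00575). The small heat shock gene A05773 had 416, 399.6 and 403 CPM in Cd50, against 729, 470.5 and 637 CPM in Control (log2 fold change -0.59, SE 0.13, edgeR adjusted p = 0.00435). Calreticulin A10050, a calcium-binding chaperone of the endoplasmic reticulum, had 464, 493 and 502 CPM in Cd50, against 406, 364 and 364 CPM in Control (log2 fold change 0.36, SE 0.08, edgeR adjusted p = 0.00564). All 3 were free of overlap, as were 46.9% of all genes tested. All 4 lower members were in the most abundant decile. The list had 20 higher and 2 lower with library size alone, 4 and 4 without Cd50 2 or Control 3, 3 and 4 without Cd50 3, and 5 and 3 without Control 1. Ubiquitin and proteasome genes, of the main route of protein breakdown, had 7 higher and 4 lower of 39 (17.9% and 10.3%, against 17.8% and 21.8% of all genes). They included the proteasome genes A08139 (0.50) and A03151 (0.54) and the ubiquitin-conjugating gene A09790 (-0.56). The counts of this list were 23 and 1 with library size alone, 14 and 6 without Cd50 1, and 3 and 1 without Cd50 2, Cd50 3, Control 1 or Control 3. Of 26 other peptidases 4 were higher and 4 lower (15.4% each, against 17.8% and 21.8% of all genes). A10377 above was the largest rise, and the Lon protease A10372 (-0.58) and a second M24 peptidase, A04812 (-0.65), were among the falls. These counts were 11 and 2 with library size alone, 7 and 5 without Cd50 1, and 3 and 2 without Cd50 2, Cd50 3, Control 1 or Control 3.

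Of 24 membrane transporters, among them mitochondrial carriers, permeases and aquaporins but by product name no ABC transporter, 6 were higher and 6 lower with TMM, and 10 higher and 6 lower with library size alone. With TMM these were 25% each, against 17.8% and 21.8% of all genes. The mitochondrial carrier A04964 had 10.8, 10.9 and 12.2 CPM in Cd50, against 23.4, 27.9 and 24.8 CPM in Control (log2 fold change -1.17, SE 0.13, edgeR adjusted p = 3.25e-05). The aquaporin-like gene A03898, of water channels, had 97.3, 85.0 and 83.2 CPM in Cd50, against 157, 156 and 149.9 CPM in Control (log2 fold change -0.80, SE 0.10, edgeR adjusted p = 9.79e-05). The permease A09193 had 142, 129.6 and 131 CPM in Cd50, against 234, 224 and 213 CPM in Control (log2 fold change -0.74, SE 0.09, edgeR adjusted p = 7.72e-05). All 6 falls were called without each library in turn and with library size alone. The lower counts of the remaining lists rested more on single libraries or on the scaling. The 10 flagellar genes had 2 lower (20%, against 21.8% of all genes) and none higher, with a median of -0.30. Those lower were the intraflagellar transport gene A02535 (-0.46) and the axonemal dynein A04269 (-0.32). None was called without Cd50 2 or Cd50 3 or with library size alone, the call of A04269 was lost whichever library was left out, while 4 were lower in edgeR with a replicate block over 9 libraries and 5 over 6. Among 16 cytoskeleton and motor genes, 3 were lower and 2 higher (18.8% and 12.5%, against 21.8% and 17.8% of all genes). Alpha-tubulin A02279, a building block of microtubules, had 1390.0, 1057 and 1190.0 CPM in Cd50, against 1918, 1657 and 1749 CPM in Control (log2 fold change -0.55, SE 0.11, edgeR adjusted p = 0.00214). The counts of this list were 5 higher and 1 lower with library size alone, 4 and 4 without Cd50 1, and 1 higher and 2 lower without Cd50 2, Cd50 3, Control 1 or Control 3. Vesicle traffic and autophagy had 5 higher and 4 lower of 22 (22.7% and 18.2%, against 17.8% and 21.8% of all genes). They were 8 and 0 with library size alone, 2 and 0 without Cd50 2, 1 and 0 without Cd50 3, 4 and 0 without Control 1, 5 and 2 without Control 2, and 0 and 0 without Control 3.

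The lists of respiration, DNA repair and the cell cycle had few calls with TMM, against 39.6% of all genes called. Of 13 respiratory and ATP synthase genes 1 was higher, the complex I assembly factor A08199 (0.76), and 1 lower, the complex I subunit A05650 (-0.27). Neither was called without Cd50 2 or Cd50 3, A05650 was not called without Control 1 or Control 3 either, and it was at -0.03 with library size alone, where 5 of the 13 were higher and none lower. Of 8 DNA repair genes 1 was higher, the DNA glycosylase A06894, which removes damaged bases (0.42, edgeR adjusted p = 0.0122), and none lower; 3 were higher without Cd50 1, 2 without Control 2 and 5 with library size alone. Of 11 cell cycle genes 2 were higher and 1, the kinase A01325 given above, was lower; 5 were higher and 1 lower with library size alone, and 1 was higher without Cd50 3 or Control 3.

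**Figure D3:**
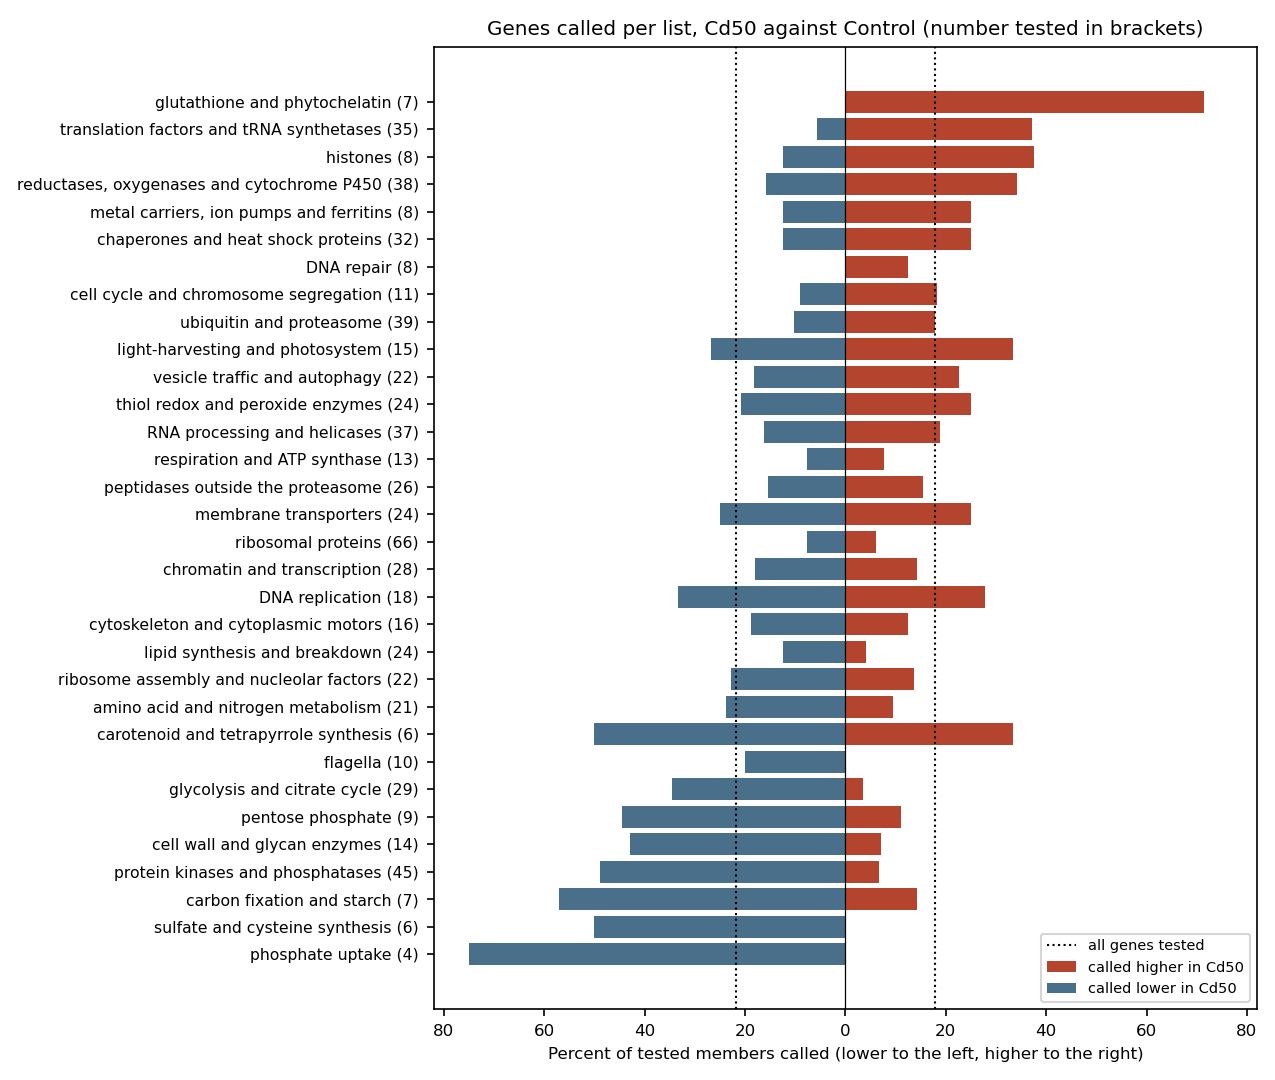
Percent of tested members of each of the 32 lists that were called higher in Cd50 (red, to the right) or lower (blue, to the left) with TMM scaling, with the number tested in brackets and dotted lines at the shares of all genes tested (17.8% higher, 21.8% lower). Glutathione and phytochelatin genes reach 71.4% higher, phosphate uptake 75% lower and protein kinases and phosphatases 48.9% lower; lists of fewer than 10 genes move by large steps.

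The largest rises of all lay in genes without an informative product, which made up 9881 of the genes tested and of which 17.9% were higher and 22.0% lower, against 16.7% and 20.2% of described genes. A03867 was nearly silent without cadmium, with 7 counts in the 3 controls together against 1915 in Cd50, a ratio of 281 per unit of TMM-scaled library size (95% counting interval 136 to 701). Novel00414 was abundant after cadmium, with 1453, 1427 and 1507 CPM in Cd50, against 42.3, 28.3 and 32.2 CPM in Control (log2 fold change 5.41, SE 0.15, edgeR adjusted p = 8.13e-10). A07363 had 95.2, 112 and 110.1 CPM in Cd50, against 3.10, 3.73 and 3.92 CPM in Control (log2 fold change 4.89, SE 0.14, edgeR adjusted p = 8.13e-10). For Novel00093 the levels were 52.3, 64.3 and 59.9 CPM in Cd50, against 2.20, 3.40 and 2.50 CPM in Control (log2 fold change 4.45, SE 0.19, edgeR adjusted p = 2.48e-08). Each of these 4 kept a narrow spread within Cd50 next to the size of the difference.

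Among undescribed genes that fell, A08600 had 23.5, 19.7 and 17.9 CPM in Cd50, against 237, 189.9 and 203 CPM in Control (log2 fold change -3.37, SE 0.14, edgeR adjusted p = 2.43e-08). Novel01249 had 3.33, 1.54 and 0.785 CPM in Cd50, against 24.1, 28.7 and 25.8 CPM in Control (log2 fold change -3.83, SE 0.32, edgeR adjusted p = 4.81e-06). A03453 had 6.83, 5.56 and 4.63 CPM in Cd50, against 55.1, 73.3 and 61.9 CPM in Control (log2 fold change -3.49, SE 0.18, edgeR adjusted p = 1.44e-07). Its neighbour A03454 had 5.48, 4.98 and 3.61 CPM in Cd50, against 41.8, 58.4 and 48.2 CPM in Control (log2 fold change -3.40, SE 0.19, edgeR adjusted p = 2.9e-07). These 2 lie on chromosome 16 with 795 bases between them, and their levels ran in parallel over the 6 libraries. Among described genes outside the lists, the CRAL-TRIO domain gene A09785, of a family of lipid-binding proteins, had 104, 72.7 and 69.8 CPM in Cd50, against 266, 239.6 and 245 CPM in Control (log2 fold change -1.61, SE 0.14, edgeR adjusted p = 6.03e-06). The cytosine deaminase-like gene A07992, named for a yeast enzyme of pyrimidine salvage, had 7.37, 5.49 and 6.44 CPM in Cd50, against 28.7, 18.6 and 23.7 CPM in Control (log2 fold change -1.88, SE 0.18, edgeR adjusted p = 1.26e-05). The WD40-repeat gene A08717 rose, with 44.7, 53.1 and 56.3 CPM in Cd50, against 21.9, 29.6 and 25.7 CPM in Control (log2 fold change 1.00, SE 0.13, edgeR adjusted p = 0.000144).

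Falls were concentrated in abundant transcripts. When the tested genes were ordered by mean CPM over the 9 libraries and divided into deciles, the median log2 fold change was 0.24 to 0.27 in the 3 lowest and -0.31 in the highest. The share of genes called lower was 5.9% in the lowest decile and 51.0% in the highest. The share called higher was 14.8% in the lowest, 24.0% at its peak in deciles 3 and 4, and 7.6% in the highest. The most abundant decile took 67.11%, 64.72% and 64.76% of the counts of Cd50 1 to 3, against 68.16%, 67.74% and 67.60% in Control 1 to 3. The 5 lowest deciles took 4.70%, 5.77% and 5.84% in Cd50 1 to 3, against 3.80%, 4.45% and 4.31% in Control 1 to 3. Cd50 1 was the Cd50 library nearest to the controls in both shares, and in each no Cd50 library reached the range of the controls. With all libraries thinned to the total of the smallest (10457007 counts) the median was 0.27 in the lowest decile, and without Control 1 and Cd50 1 it was 0.26 in the lowest and -0.32 in the highest, so the trend remained in both settings. Library size alone raised every decile by nearly the same amount, to 0.48 in the lowest and -0.08 in the highest. The slope is left in place by construction, so this setting is no test of it. Gene length showed no such trend, with medians of 0.05, 0.02 and 0.01 in short, middle and long genes, divided into equal sets.

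**Figure D4:**
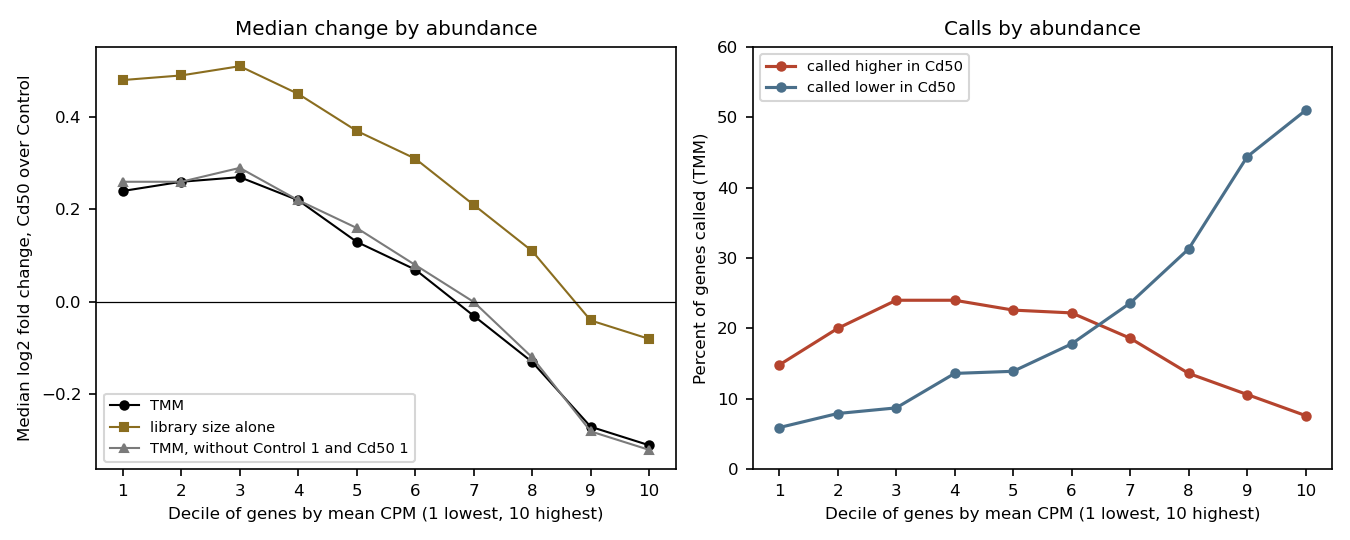
Left, median log2 fold change of Cd50 over Control in each decile of genes by mean CPM (1 lowest, 10 highest), with TMM (black), library size alone (brown) and TMM without Control 1 and Cd50 1 (grey); right, percent of genes called higher (red) or lower (blue) in Cd50 with TMM. The median falls across the deciles in all 3 settings, to -0.31 in decile 10 with TMM, and the share called lower reaches 51.0% there.

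The single transcripts with the largest changes in share of the libraries are given here with plain shares. In CPM of the plain library size, without TMM factors, the largest losses were in A06798, with 3113, 3138 and 2918 in Cd50 1 to 3 against 5318, 5510 and 5307 in Control 1 to 3, and in the phosphate permeases A05085 and A08253 described above. The largest gain was in Novel01187, with 9225, 8627 and 8905 in Cd50 1 to 3 against 4644, 4515 and 4502 in Control 1 to 3. A07320 and Novel00414 were also among the largest gains, at 1745 to 2091 and 1546 to 1801 in Cd50 against 329 to 338 and 28.2 to 39.8 in Control. These genes were picked after their values were seen, and A06798 and Novel01187 have no informative product.

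The choice of scaling moved the balance of calls more than any other setting and turned no call round. With TMM 44.9% of calls were rises and the median log2 fold change of all genes was 0.025. Median-ratio factors, which DESeq2 also uses, gave a median of 0.015 and 44.3% rises in edgeR (1951 higher, 2455 lower), and DESeq2 itself gave 43.1% (1878 and 2478). Upper quartile factors gave a median of 0.187 and 62.9% rises (3119 and 1839). Library size alone gave a median of 0.262 and 70.9% rises (3851 and 1582), and limma on log2(FPKM + 1), which shares that scaling because FPKM divides by the column total, 70.6% (3792 and 1579, which is 34.0% and 14.2% of genes tested). All 1983 genes called higher with TMM were called higher with library size alone in edgeR as well. The 1582 genes called lower with library size alone were all among the 2431 of TMM, so 849 TMM calls were lost and 1868 were gained. A gene was never called in opposite directions by TMM and any alternative.

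A change of scaling moves all genes by nearly the same amount. A list median minus the median of all genes is therefore nearly fixed, and its agreement between settings is no test. The median of the glutathione list minus the median of all genes was 1.16 both with TMM and with library size alone. For kinases and phosphatases it was -0.49 and -0.50, for translation factors and tRNA synthetases 0.21 in both, and for glycolysis and the citrate cycle -0.12 in both. Among described genes, the largest falls lost with library size alone were the RNA helicase A03131 (-0.77 with TMM, edgeR adjusted p = 0.0607 with library size), the uridylate kinase A04469 (-0.72, 0.0587), the small-GTPase-binding gene A06010 (-0.69, 0.166), ribosomal protein S13 A10874 (-0.67, 0.0947) and the rRNA-processing gene A04162 (-0.66, 0.051). Each of these 5 also lost its call without Control 1, Control 3, Cd50 2 or Cd50 3. Among the largest rises gained were the excision repair gene A09728 (0.72 with TMM, adjusted p = 0.0458 with library size), the helicase A03141 (0.80, 0.0463), the peptidyl-tRNA hydrolase A06830 (0.69, 0.0136), the methyltransferase A07193 (0.68, 0.0449) and A06267, a YL1 domain gene (0.68, 0.0473). A07193 was also called in edgeR with a replicate block over 9 libraries (adjusted p = 0.0408). With a block over the 6 libraries, edgeR called A09728 (0.0178), A03141 (0.0195), A06830 (0.00976) and A07193 (0.0246). The files used here hold no spike-in values, so which factor is right was not tested.

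**Figure D5:**
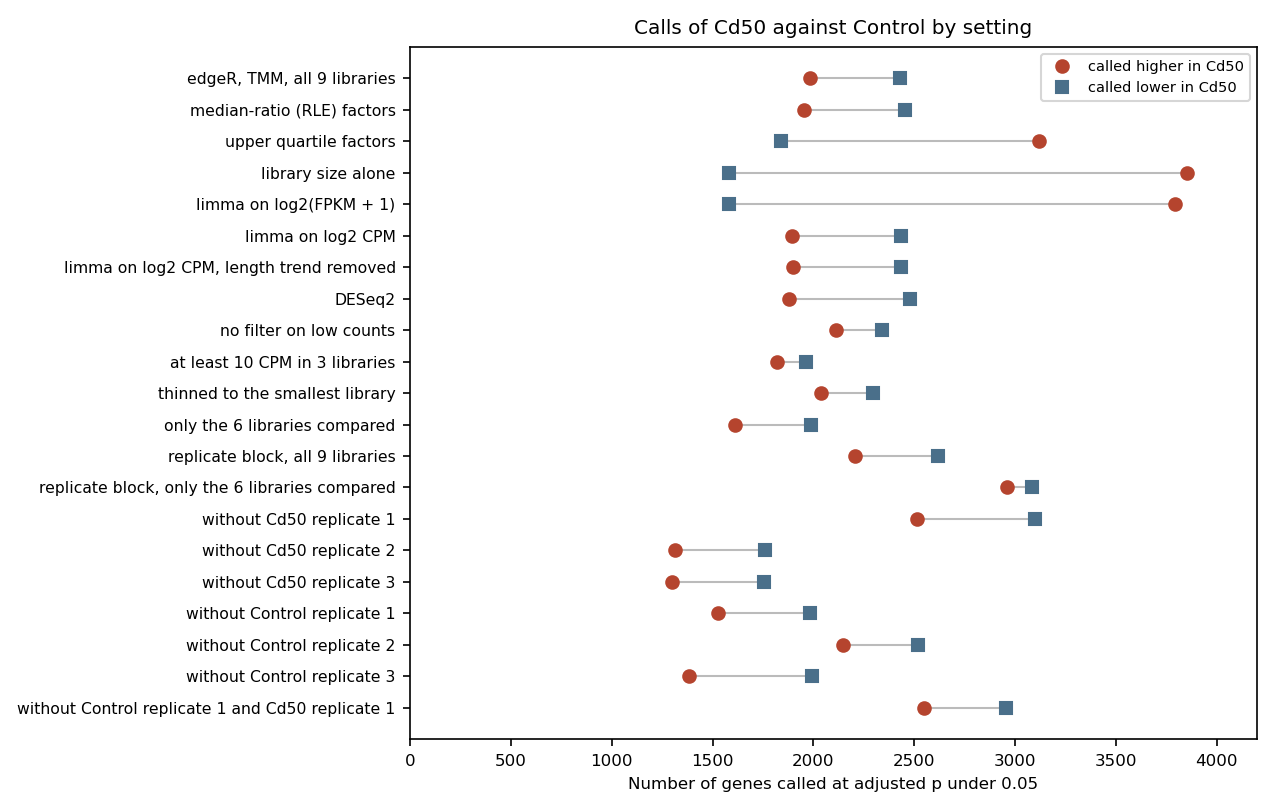
Number of genes called higher (red circles) and lower (blue squares) in Cd50 at an adjusted p under 0.05 under each setting, with the edgeR fit with TMM and all 9 libraries at the top (1983 and 2431). Library size alone, limma on FPKM and upper quartile factors put the higher calls above the lower ones (3851 against 1582, 3792 against 1579, and 3119 against 1839). Leaving out Cd50 2 or Cd50 3 gives the fewest calls of the settings drawn.

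Cd50 1 and Control 1 affected the calls differently. Cd50 1 was the Cd50 library nearest to the controls for 72.8% of genes called higher and 73.0% of genes called lower. Among controls, Control 2 was nearest to Cd50 for most of these genes (57.9% and 57.8%), and Control 1 for 16.1% and 20.2%. Without Cd50 1 the counts were 2516 higher and 3098 lower, more than with it, and without Control 1 they were 1529 and 1982. Without both they were 2546 (22.7%) and 2957 (26.3%). Of the calls with all libraries, 4237 were kept and 177 lost, and 1266 were gained. The kept genes had a median size of change of 0.72 with all libraries and 0.73 without both, and 2513 of the 4237 were larger without them. The balance of the directions hardly moved, at 46.3% rises, and with library size alone as well it was 71.1% (4776, or 42.5% of genes, and 1941), so the effect of scaling did not rest on those 2 libraries.

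The described genes with the largest changes among the calls lost without Control 1 and Cd50 1 were small or variable. A10685, a nucleoside triphosphate hydrolase-fold gene, had 21.5, 14.8 and 15.3 CPM in Cd50, against 9.02, 11.2 and 10.9 CPM in Control, with Cd50 1 well above the other Cd50 libraries (log2 fold change 0.73 with all libraries, 0.47 without both, edgeR adjusted p = 0.0593). Dihydrodipicolinate reductase A00191, named for an enzyme of lysine synthesis, had 13.8, 11.1 and 12.1 CPM in Cd50, against 24.9, 14.7 and 15.2 CPM in Control, with Control 1 well above the other controls (-0.57 with all libraries, -0.34 without both, edgeR adjusted p = 0.0721). Among those gained were the FAS1 domain gene A07470, with 12.6, 4.98 and 5.34 CPM in Cd50, against 11.5, 8.54 and 12.7 CPM in Control (log2 fold change -0.53 with all libraries, -1.02 without both, edgeR adjusted p = 0.000943). At under 5 CPM in every library, and given the same way, were the oxidoreductase A02516 (-1.09 and -1.46, 0.0113), the protein kinase A00426 (-0.86 and -0.96, 0.0289), the cyclin A09727 (-0.50 and -1.0, 0.0402) and the mitochondrial import gene A07409 (0.62 and 1.09, 0.0163). With all 9 libraries and a replicate block, edgeR called A02516 and A00426 as well (adjusted p of 0.0273 and 0.0251), and with a block over the 6 it called A07470 (0.0353) too.

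Without Cd50 2 there were 1313 higher and 1762 lower genes, and without Cd50 3 there were 1300 and 1754, against 1983 and 2431 with all libraries. Without Control 2 there were 2145 and 2519, and without Control 3 there were 1381 and 1993. Across the 9 ways to leave out 1 Cd50 and 1 Control library, of which 8 were added after the data were seen, the counts were lowest without Control 3 and Cd50 2 or Cd50 3 (644 and 1343, and 650 and 1317) and highest without Control 2 and Cd50 1 (3029 and 3386). In the fit of the 6 libraries alone, without the Cd20 libraries in the estimate of spread, 1612 were higher and 1987 lower. With the replicate number as a block the counts were 2205 (19.8%) and 2619 over 9 libraries and 2961 (26.7%) and 3086 over 6. With the block over 9, ribosomal proteins had 6 higher and 9 lower and lipid genes 2 and 3. With the block over 6, ribosomal proteins had 8 higher and 10 lower, RNA processing 15 and 10, chromatin and transcription 8 and 7, ubiquitin and proteasome 13 and 5, and membrane transporters 10 and 7. In the same fit DNA replication had 8 and 6, translation factors 18 and 5, ribosome assembly 5 and 7, kinases and phosphatases 6 and 24, amino acid metabolism 5 and 7, and pentose phosphate 3 and 5. Lipid genes had 3 and 4, DNA repair 3 and 1, histones 3 and 2, respiration 2 and 1, cell wall 2 and 7, and glycolysis and citrate cycle 2 and 11. Called in the same direction with TMM and in each of the 20 other settings chosen at the outset were 814 higher genes, with a median log2 fold change of 0.74, and 1298 lower genes, with a median of -0.88, of which 89 and 116 have an informative product.

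Levels in Cd20 stood at different places for different genes. Between Cd50 and Cd20, which share the Cd50 libraries with the comparison above, 7793 genes were called (70.0%). The zinc/iron permease A07895 averaged 47.9 ± 34.9 CPM in Cd50 and 121 ± 34.2 CPM in Cd20 (SD, n = 3 each), a log2 difference of -1.34 (edgeR adjusted p = 0.00784). The NADP-binding gene A09495 averaged 252 ± 49.1 CPM in Cd50 and 90.8 ± 16.2 CPM in Cd20 (1.47, edgeR adjusted p = 9.74e-05). The phosphate permease A08253 averaged 1518 ± 439 CPM in Cd50 and 4919.7 ± 579 CPM in Cd20 (-1.70, edgeR adjusted p = 3.86e-05), with 3908 ± 629 CPM in Control. The dehydrogenase of glucose 6-phosphate A04681 averaged 53.9 ± 4.67 CPM in Cd50 and 21.3 ± 0.890 CPM in Cd20 (1.34, edgeR adjusted p = 2.05e-05). Novel00414 averaged 1462 ± 40.5 CPM in Cd50 and 3370.0 ± 174 CPM in Cd20 (-1.20, edgeR adjusted p = 3.19e-05). The E1-E2 ATPase A10982 averaged 508 ± 90.1 CPM in Cd50 and 484 ± 35.5 CPM in Cd20, a log2 difference of 0.07 that was not called (edgeR adjusted p = 0.64). Glutamate-cysteine ligase A01378 averaged 34.8 ± 3.47 CPM in Cd50 and 29.3 ± 2.64 CPM in Cd20 (0.25, edgeR adjusted p = 0.102). A missed threshold does not show that the 2 doses act alike.

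The authors' deposited table of the same comparison lists 3710 genes, 1539 higher and 2171 lower in Cd50. Of these, 3658 were called by edgeR in the same direction and none in the opposite one, 52 of the genes in the authors' deposited table were not called, and 756 edgeR calls were not in it. The edgeR calls counted here are those of the fit of all 9 libraries, and the fit of only the 6 called 3599 genes. Both sets of calls come from the same libraries, so their shared directions are no separate support.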

How the data were processed

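Poly(A)-selected RNA of 9 libraries was sequenced with a strand-marking kit, per the labels' protocols. The authors deposited a table of read counts per gene and a table of FPKM values, and the submitters' processing notes name DESeq2 1.34.0, StringTie 2.2.1 and STAR 2.7.10a. The counting program, its strand setting and the assembly and annotation behind it were not given in the sources used here. The deposited FPKM equalled counts divided by gene length and by the column total (100.0% of values within 1%), so FPKM carries no composition factor; 91.85% of lengths are multiples of 3, so they are mostly coding lengths. The authors' deposited table also holds a log2 fold change and p-values per listed gene, of which only the genes listed and their direction were used; its group means of normalized counts, a signal computed by the authors, were not. Products came from the annotation column of the FPKM table.

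Counts were filtered with filterByExpr (11140 of 12605 genes kept, 219 had no count), scaled by TMM and tested with edgeR 4.0.16 in R 4.3.3 (quasi-likelihood test, group as the only term, all 9 libraries in 1 fit, common biological coefficient of variation 0.139). P-values were adjusted over all genes tested by the Benjamini-Hochberg method, and SE is the log2 fold change divided by the square root of F. Alternatives used DESeq2 1.42.0 and limma 3.58.1, with limma run on log2(FPKM + 1) or on log2 CPM. Scripts were tested on simulated counts. Counting intervals are exact 95% intervals and cover counting error only.

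The comparison, the 32 lists (731 genes, 668 tested) and the tests were chosen with earlier results of these data known. Named genes were the 15 largest rises and 15 largest falls among described genes, and 4 and 4 without a description. These had to be called, with a mean of at least 10 CPM over the 6 libraries compared and groups not overlapping. Also named were the 3 lowest adjusted p-values per list and all members of lists of up to 8. The 5 largest calls lost and gained by each of 2 settings were named as well. Others are marked in the text. Replicate numbers come from the labels. Residuals of same-numbered Cd50 and Control libraries correlated at 0.594, 0.449 and 0.186 (numbers 1, 2 and 3). Cd50 3 correlated higher with Control 2 (0.395). The labels do not say that the numbers are pairs. They were taken as pairs for the fit with a replicate block on these same data, so its calls rest on a pairing that is not established.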

Additional observations from a re-analysis of the deposited data

How the results depend on the processing

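The numbers of genes called and the balance of directions followed the scaling. Against 1983 higher and 2431 lower genes and 44.9% rises with TMM, library size alone gave 3851, 1582 and 70.9%, limma on log2(FPKM + 1) gave 3792, 1579 and 70.6%, and upper quartile factors gave 3119 higher genes and 62.9% rises. Without Control 1 and Cd50 1 and with library size alone together, 4776 genes were higher and 71.1% of calls were rises. The share of rises was 43.1% with DESeq2, 47.5% with no filter on low counts, 48.1% with at least 10 CPM in 3 libraries and 47.0% with all libraries thinned to the smallest; the cause was not tested. With 1 library left out, or 1 of each group, the higher genes numbered 644 to 3029, the lower genes 1317 to 3386 and the share of rises 32.4% to 47.2%.

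With the replicate number as a block the counts were 2205 and 2619 over 9 libraries, and 2961 and 3086 over the 6 (49.0% rises). Among 162 named genes the replicate block added 5 calls and removed 1 over 9 libraries, and added 15 and removed 0 over the 6.

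Of the 126 named genes called, 91 kept the call under each of the 20 settings chosen at the outset that tested them. The other 35 lost the call under at least 1. Signs turned mostly in genes near 0, but also in the low-count cyclin A09727 (47 counts in Cd50 and 68 in Control). With library size alone the log2 fold change was 0.12 for A01333, 0.05 for A02943, 0.04 for A08034 and 0.07 for A10153. With limma on FPKM it was 0.12 for A01333, 0.01 for A02943, 0.03 for A04145, 0.06 for A08034 and 0.07 for A10153, and with upper quartile factors 0.05 for A01333. Without Control 1 and Cd50 1 and with library size alone it was 0.16 for A01333, 0.01 for A04112, 0.06 for A07916 and 0.11 for A10153. With libraries left out the range was -0.10 to 0.19 for A00017, -0.18 to 0.26 for A00125, -0.01 to 0.39 for A00337, -0.27 to 0.04 for A01333, -0.11 to 0.36 for A02902, -0.47 to 0.16 for A02943, -0.50 to 0.08 for A04145, -0.02 to 0.17 for A04541, -0.06 to 0.48 for A04655, -0.19 to 0.25 for A06015, -0.40 to 0.04 for A08034, -0.09 to 0.12 for A08799 and -1.0 to 0.06 for A09727. None of these was called with TMM except A07916. Depth limits what can be said of genes under about 1 CPM, and the 1465 genes removed by the filter were not tested.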
